A study of Mus musculus with 18 samples.

Results

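Mouse spleens taken after a high fat diet, streptozotocin (STZ) and a transplant of faecal microbiota (FMT) whose donors had received AOS were compared with spleens of untreated controls. The comparison uses 6 of the 18 RNA sequencing libraries of the study, 3 labelled HS_AOSFMT (HS for the diet with STZ) and 3 labelled control. It was made over all 12969 genes that reached a value of 1 in at least 3 of the 18 libraries. All mice were ICR mice aged 10 weeks, and the labels do not spell out what AOS stands for. The series title asks whether such a transplant rescues the spleen from the diet and STZ.

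The control mice received no treatment. The HS_AOSFMT mice received a high fat diet, STZ, and microbiota of donors given AOS at 10 mg/kg. A group labelled HS received the diet and STZ alone, and a group labelled HS_conFMT received them with microbiota of control donors. These groups, each of 3 libraries, appear below only to place the values of HS_AOSFMT. The 2 other groups, also of 3 libraries each, received AOS at 10 mg/kg directly, without further treatment (labelled AOS) or with the diet and STZ (HS_AOS), and they enter the fit for its estimate of the spread. HS_AOSFMT differs from control in the diet, in STZ and in the transplant, so the contributions of these to a difference from control cannot be told apart. Whether each library is a mouse of its own is not stated, so a p-value here reflects how far the libraries scatter, and that scatter may be technical.

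The spleen filters blood, and its red pulp removes old red cells. In mice the red pulp also makes red cells, platelets and granulocytes. Its white pulp holds T cells around arterioles and B cells in follicles. STZ enters the insulin-producing beta cells of the pancreas and damages them. Microbial products and metabolites of a transplanted microbiota can reach immune cells beyond the gut, and glucocorticoid hormones, cAMP and fatty acids are signals that such cells answer with known sets of target genes.

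Values are FPKM, fragments counted relative to transcript length and to the mapped fragments of the library. Differences are log2 changes of FPKM + 1 from limma, a linear model with a shared estimate of the spread, and they understate the change of low genes. A gene was called where its Benjamini-Hochberg adjusted p was under 0.05. Summed FPKM ran from 666441 to 831448 over the 18 libraries. The absolute depth is unknown, so low values stand without a counting error, and a coarse estimate put relative depth between 0.987 and 1.1. The spleen markers Tlx1, Madcam1, Cr2 and Spic were detected in all 6 libraries.

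Some libraries stood apart before any gene was tested. On the first principal component, which held 33.0% of the variance, the controls lay at 31.5, 2.66 and -19.4, and HS_AOSFMT 1 to 3 lay at -30.8, -21.8 and -25.7. Control 1 also held the most RNA of neutrophil granule genes, 1.98% of its summed FPKM, against 0.605% and 0.136% in control 2 and 3 and 0.247% to 0.320% in HS_AOSFMT. Genes of haemoglobin took 34.3%, 27.1% and 21.5% of control 1, 2 and 3 and 15.3%, 17.6% and 12.9% of HS_AOSFMT 1, 2 and 3. The groups did not overlap in that share (exact permutation test, two-sided, p = 0.1, the smallest p that 3 against 3 libraries allow). In whole tissue, fewer cells of a type and less RNA per cell cannot be told apart.

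Against control, 1255 genes were higher and 303 lower in HS_AOSFMT, which is 9.68% and 2.34% of the genes tested. Unadjusted p was under 0.05 in 4133 genes (31.9%), and the groups did not overlap in 4102 genes (31.6%). The median over all genes was 0.09 on the log2 scale, and 64.6% of genes lay above 0. The split between directions depended on the scaling. It was 811 higher to 476 lower after upper quartile scaling, and 579 to 474 after haemoglobin and pancreatic acinar genes were left out and the rest was brought to a common sum, where the median was -0.00. The total was 482 without control 1, 933 without control 2, 3381 without control 3, and 579, 990 and 448 without HS_AOSFMT 1, 2 and 3. With the haemoglobin share of each library as a covariate it was 228 (128 higher and 100 lower), and with these 2 groups alone it was 174.

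In all 16 fits, the primary one and its 15 alternatives, 72 genes were called, 66 of them higher and 6 lower. Among the 138 called genes that are named by the rule given with the processing, 25 were called in every alternative in which they were tested. The 23 higher ones were Hspb1, Pdk4, B3gnt7, Slc37a2, Arg2, Crem, Stat4, Nr1d1, Fkbp5, Zbtb16, Per1, Pde3b, Fosl2, Maff, Bhlhe40, Il7r, Fas, Cxcr6, Plin2, Angptl4, Rundc3b, Cables1 and Arrdc3, and Kap was among the 2 lower ones. Their values follow with the gene groups they belong to. Zbtb16 and Kap passed the filter on low values through the group where each is high, so their calls support nothing.

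The small heat shock protein gene Hspb1 had the largest rise in log2(FPKM + 1) among named genes. Its product is a chaperone that also binds the actin skeleton. The ratio of group means, 4.69, was below that of genes with lower values such as Pdk4 (5.59). Hspb1 (chromosome 5, 135887919 to 135889563, mm10, GENCODE M21) stood at 119, 143 and 148 FPKM in HS_AOSFMT 1, 2 and 3 and at 17.1, 31.5 and 38.6 in control 1, 2 and 3. Every HS_AOSFMT library lay above every control library, and the log2 change was 2.26 (SE 0.33, limma adjusted p = 0.0019). B3gnt7, a glycosyltransferase that extends sugar chains of keratan sulfate, stood at 10.3, 11.1 and 10.3 FPKM against 1.23, 2.45 and 2.30 (log2 change 1.97, SE 0.18, limma adjusted p = 1.8e-05). Slc37a2, a sugar phosphate transporter of the endoplasmic reticulum, stood at 9.20, 8.64 and 12.8 FPKM against 1.28, 2.37 and 2.34 (log2 change 1.91, SE 0.29, limma adjusted p = 0.0019). Lack of overlap was a condition for naming genes by the size of their rise, so it adds no support here.

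**Figure D1:**
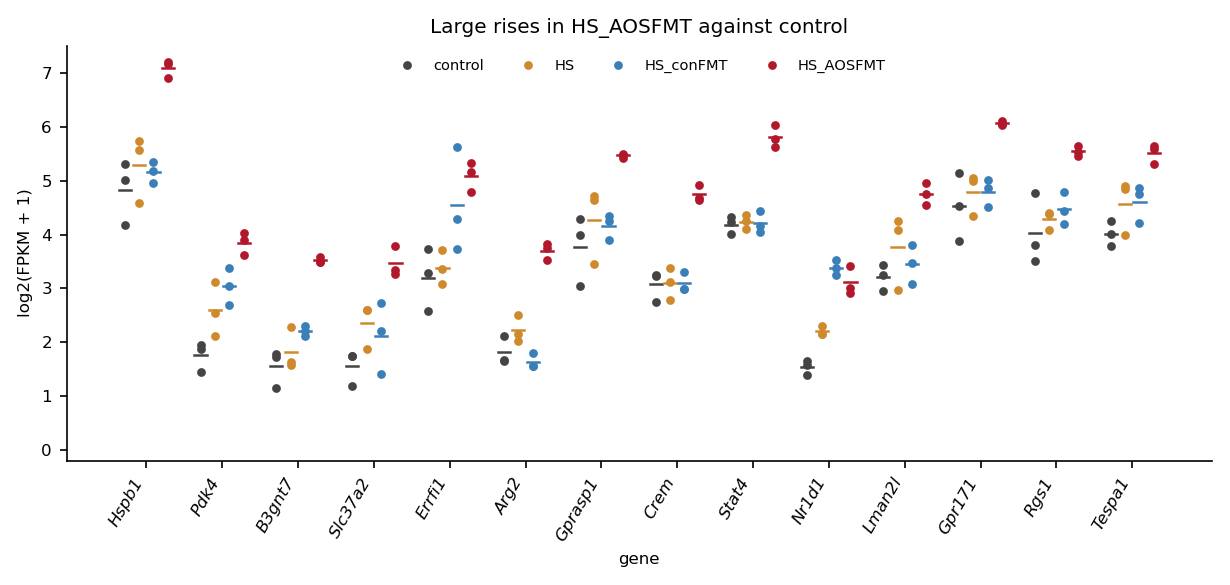
Log2(FPKM + 1) of named genes with the largest rise in HS_AOSFMT against control, in the libraries of control, HS, HS_conFMT and HS_AOSFMT. Points are libraries and short lines are group means. In Stat4, Crem and Arg2 the HS_AOSFMT points lie above the 9 others, whereas in Nr1d1 the HS_conFMT points reach as high. A gene was shown only if its HS_AOSFMT and control points did not overlap.

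Other large rises included genes of signalling in lymphocytes. Rgs1, which shortens signals of G protein-coupled receptors in lymphocytes, stood at 43.3, 45.7 and 49.2 FPKM against 10.5, 13.1 and 26.5 (log2 change 1.52, SE 0.24, limma adjusted p = 0.0024). Tespa1, which takes part in T cell receptor signalling, stood at 39.0, 49.2 and 47.2 FPKM against 12.8, 15.04 and 18.1 (log2 change 1.51, limma adjusted p = 0.0033). Gprasp1 (log2 change 1.70), Lman2l (1.55) and Gpr171 (1.55) also rose. Lack of overlap was a condition for naming the genes of this paragraph. Rgs1 and Gpr171 were not called when these 2 groups were fitted alone, and Tespa1, Gprasp1, Lman2l and Gpr171 were not called with the haemoglobin share as a covariate.

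Genes that glucocorticoid hormones are known to switch on rose together. Of 16 listed genes, all tested, 14 were called higher and 0 lower, with a median log2 change of 0.99 against 0.09 over all genes, and the share called higher over all genes was 9.68%. Fkbp5, which encodes a chaperone of the glucocorticoid receptor and feeds back on it, stood at 32.0, 22.3 and 26.6 FPKM in HS_AOSFMT against 8.82, 9.93 and 9.56 in control. The groups lay far apart (log2 change 1.41, SE 0.12, limma adjusted p = 1.2e-05). Zbtb16, a transcription factor induced by the same hormone in many tissues, stood at 2.02, 1.58 and 1.75 FPKM against 0.36, 0.38 and 0.51 (log2 change 0.97). It reached 1 FPKM in the HS_AOSFMT libraries alone, so it passed the filter on low values through the group where it is high. That fixes its direction, so its call among the 14 and its lack of overlap support nothing.

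Within the same list, Errfi1, an inhibitor of the epidermal growth factor receptor, stood at 39.1, 34.8 and 26.7 FPKM against 5.01, 8.77 and 12.3 (log2 change 1.89, SE 0.37, limma adjusted p = 0.0074). Ddit4, which restrains the growth kinase mTOR, stood at 54.1, 51.8 and 55.2 FPKM against 16.5, 28.0 and 31.7 (log2 change 1.10, SE 0.20, limma adjusted p = 0.0048). Pik3ip1, an inhibitor of the kinase PI3K in T cells, stood at 23.8, 20.7 and 28.9 FPKM against 8.88, 11.99 and 14.5 (log2 change 1.00, SE 0.21, limma adjusted p = 0.0088). None of these overlapped between the groups, which for Errfi1 was a condition for naming it among the largest rises. The members not called were Cdkn1c (log2 change 0.19) and Dusp1 (-0.06). The count of 14 was 9 without control 1, 9 without HS_AOSFMT 1 and 8 without HS_AOSFMT 3. It was 5 with the haemoglobin share as a covariate and 4 with these 2 groups alone. The part of the haemoglobin share in the result was not tested beyond that covariate.

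Targets of cAMP signalling, which reach the nucleus through the factors CREB and CREM, rose as well. Of 10 tested members, 7 were called higher and 0 lower (median log2 change 0.80), against 9.68% of all genes called higher (median 0.09). Crem, which encodes activators and an early repressor of cAMP-responsive genes, stood at 24.7, 29.4 and 24.1 FPKM in HS_AOSFMT against 5.70, 8.50 and 8.41 in control (log2 change 1.68, SE 0.16, limma adjusted p = 2.7e-05). Pde3b, a phosphodiesterase that breaks down cAMP, stood at 17.98, 18.1 and 18.6 FPKM against 4.62, 6.80 and 7.44 (log2 change 1.42, SE 0.12, limma adjusted p = 8e-06). In both genes all HS_AOSFMT libraries lay above all controls, which for Crem was a condition for naming it among the largest rises.

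Arg2, the mitochondrial arginase, stood at 13.3, 10.5 and 12.5 FPKM against 2.17, 2.14 and 3.35 (log2 change 1.89, SE 0.20, limma adjusted p = 0.00011). The nuclear receptor Nr4a3 (2.95, 3.24 and 3.22 FPKM against 0.85, 1.26 and 1.67) and Sik1, a kinase that restrains CREB coactivators (25.8, 24.6 and 26.7 against 7.97, 13.1 and 18.7), rose by 0.89 and 0.98 on the log2 scale. No pair of groups overlapped in these 3 genes, which for Arg2 was a condition for naming it among the largest rises. The list held 5 to 10 calls in every alternative but one, the fit of these 2 groups alone, where it held 4, and 10 were called without control 3. With the haemoglobin share as a covariate 5 were called.

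Among 21 tested immediate early genes, the first to be transcribed after a stimulus, 8 were called higher and 0 lower (median log2 change 0.35). Over all genes 9.68% were called higher, with a median of 0.09. Fosl2, a partner in the AP-1 transcription factor, stood at 7.70, 8.08 and 6.92 FPKM against 3.68, 4.10 and 4.86 (log2 change 0.72, SE 0.12, limma adjusted p = 0.0038). Maff, a small Maf factor, stood at 3.75, 5.10 and 4.93 FPKM against 1.17, 1.44 and 1.71 (log2 change 1.19, limma adjusted p = 0.00045). Junb rose from 34.9, 34.4 and 46.6 FPKM to 52.6, 61.7 and 64.5 (log2 change 0.62, limma adjusted p = 0.0047). The groups did not overlap in these genes. Fos (log2 change 0.03), Egr1 (-0.15) and Jun (-0.28), named here after their values were seen, were not called. The count of 8 was 3 without control 1, 5 without control 2, HS_AOSFMT 1 or HS_AOSFMT 2, 4 without HS_AOSFMT 3 and 13 without control 3. It was 2 with the haemoglobin share as a covariate or with these 2 groups alone, 5 after upper quartile scaling or with no filter on low values, and 4 with haemoglobin and acinar genes left out.

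The circadian clock list held 17 tested genes, of which 7 were called higher and 0 lower (median log2 change 0.40, all 17 above 0). Over all genes 9.68% were called higher and 64.6% lay above 0. Nr1d1, which encodes the repressor REV-ERB alpha of the clock, stood at 6.51, 7.09 and 9.70 FPKM in HS_AOSFMT against 1.61, 1.99 and 2.13 in control (log2 change 1.58, SE 0.18, limma adjusted p = 0.00023). Per1, a clock repressor that glucocorticoids and cAMP also induce, stood at 15.6, 16.2 and 15.7 FPKM against 5.42, 7.04 and 9.14 (log2 change 1.06, SE 0.15, limma adjusted p = 0.0012). Bhlhe40, a clock repressor and a regulator of T cell cytokines, stood at 22.9, 27.6 and 24.8 FPKM against 10.4, 13.0 and 11.9 (log2 change 1.03, limma adjusted p = 0.0012). None of the 3 overlapped between the groups, which for Nr1d1 was a condition for naming it among the largest rises.

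The clock activator genes Arntl (log2 change 0.11) and Clock (0.19) were not called, and they are named here after their values were seen. Nfil3 (6.12, 6.47 and 5.50 FPKM against 3.68, 3.85 and 3.02), Per2 (4.86, 4.54 and 4.64 against 2.28, 2.87 and 3.48) and Ciart (3.19, 2.73 and 3.06 against 1.48, 2.10 and 1.53) rose by 0.64, 0.56 and 0.57 on the log2 scale. These groups did not overlap either. The count of 7 was 4 without control 1 and 4 with the haemoglobin share as a covariate, and 3 with these 2 groups alone. The hour of tissue collection is not given in the sources used here, and its part in these values was not tested.

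Chaperones of the endoplasmic reticulum, which the unfolded protein response induces, rose by small and even amounts. Of 18 tested members 13 were called higher and 0 lower (median log2 change 0.54), against 9.68% of all genes called higher. The groups did not overlap in 17 of 18, against 31.6% of all genes. Hspa5, the master chaperone BiP of the endoplasmic reticulum, stood at 355, 398 and 394 FPKM in HS_AOSFMT against 195, 269 and 257 in control (log2 change 0.68, SE 0.13, limma adjusted p = 0.0061). Pdia6, a protein disulfide isomerase, stood at 122, 141 and 145 FPKM against 82.7, 97.5 and 75.4 (log2 change 0.67, SE 0.14, limma adjusted p = 0.0079). Pdia3 (269, 280 and 283 FPKM against 173, 198 and 208) and Dnajc3 (33.7, 30.6 and 33.8 against 18.9, 25.7 and 25.4) rose by 0.53 and 0.48. In each of these genes all HS_AOSFMT libraries lay above all controls.

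The count of 13 was 4 without control 1, 8, 7 and 3 without HS_AOSFMT 1, 2 and 3, and 0 both with the haemoglobin share as a covariate and with these 2 groups alone. The related integrated stress response, in which translation is slowed and the factor ATF4 accumulates, had a median of -0.02. Of its 15 tested genes limma called 0 (4 at an unadjusted p under 0.05), and 4 were called without control 3. The shares of all genes were 9.68% called higher and 2.34% called lower. Its genes of smallest p were Ppp1r15a (66.5, 84.1 and 53.8 FPKM against 168, 131 and 92.5), Slc7a5 (log2 change -0.60) and Asns (-0.58).

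The promoters of several of these chaperone genes hold the ER stress element, CCAAT and, 9 bases on, CCACG, to which the response's factors are known to bind. It was searched on both strands in windows of 300 bases, from 250 before to 50 after the RefSeq start, in GRCm38.p6. The motif was added after the values were seen. It stood in 7 of 15 windows of the list (46.7%), against 0.139% of the 12949 windows of tested genes, 0.119% of all windows and 0.553% of the windows of genes called higher. Of the genes tested, 10171 had a window. A match is a description of letters and not a measured binding site. The 5 stretches below show the motif in capitals in genes that were called higher. In Creld2 it lies on the opposite strand.

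Hspa5: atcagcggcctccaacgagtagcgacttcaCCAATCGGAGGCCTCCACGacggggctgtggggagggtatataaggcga
Pdia6: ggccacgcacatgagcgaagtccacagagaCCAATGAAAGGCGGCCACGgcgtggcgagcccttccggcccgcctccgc
Dnajc3: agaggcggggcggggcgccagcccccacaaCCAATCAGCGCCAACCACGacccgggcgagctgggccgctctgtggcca
Syvn1: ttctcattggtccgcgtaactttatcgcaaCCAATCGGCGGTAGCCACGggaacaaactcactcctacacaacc
Creld2: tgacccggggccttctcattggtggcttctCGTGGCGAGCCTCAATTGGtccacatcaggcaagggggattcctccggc

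These stretches lie at chr2:34771995-34772073, chr12:17266461-17266539, chr14:118937797-118937875, chr19:6046502-6046575 and chr15:88819490-88819568, in that order and all on the plus strand. Syvn1, a ubiquitin ligase that clears misfolded proteins, stood at 68.6, 73.8 and 73.2 FPKM against 46.4, 56.8 and 57.0 (log2 change 0.43). Creld2, a protein of the endoplasmic reticulum, stood at 47.6, 61.2 and 65.1 FPKM against 25.5, 42.3 and 27.1 (log2 change 0.88). Neither overlapped between the groups, and both are named for their promoters.

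For the glucocorticoid list the response element, GNACA and 3 bases on TGTNC, stood in 3 of 22 windows, those of Mt1, Sgk1 and Txnip, against 0.348% of the windows of tested genes and 1.03% of those of genes called higher. All 3 genes were called higher, with log2 changes of 1.06, 0.67 and 0.66. The stretches of Mt1 and Sgk1 are shown because their groups did not overlap, whereas Txnip stood at 246, 222 and 235 FPKM against 103, 140 and 225.

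Mt1: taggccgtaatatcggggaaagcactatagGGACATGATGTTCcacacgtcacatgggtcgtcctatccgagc
Sgk1: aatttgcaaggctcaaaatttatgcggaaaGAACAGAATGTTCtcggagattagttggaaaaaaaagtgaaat

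They lie at chr8:94178965-94179037 and chr10:21993672-21993744 on the plus strand, with the motif in capitals. Mt1, a metal-binding metallothionein, stood at 218, 258 and 207 FPKM against 145, 111 and 78.3. Sgk1, a kinase of ion transport and cell survival, stood at 27.3, 29.1 and 28.0 FPKM against 12.5, 16.3 and 25.3. In both the HS_AOSFMT libraries lay above the controls, which was the condition for showing them and adds no support. The cAMP response element, TGAC directly followed by GTCA, stood in 0 of 9 windows of the cAMP list. It stood in 4.27% of the windows of genes called higher, 1.62% of those of genes called lower and 2.83% of those of all tested genes. The E-box CACGTG, which clock factors are known to bind, stood in 6 of 20 windows of the clock list, against 9.62% of the windows of tested genes.

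Heat shock genes rose in part. Of 20 tested members 7 were called higher and 0 lower (median log2 change 0.66), against 9.68% of all genes called higher. Hspb1 was among the 7. Hspe1, the mitochondrial co-chaperonin, stood at 322, 386 and 374 FPKM in HS_AOSFMT against 201, 246 and 223 in control (log2 change 0.69, SE 0.16, limma adjusted p = 0.016). Chordc1, a co-chaperone of HSP90, stood at 116, 163 and 114 FPKM against 36.0, 60.3 and 69.0 (log2 change 1.27, limma adjusted p = 0.020). The groups did not overlap in either. Hspa1a, the inducible HSP70, named here after its values were seen, stood at 13.4, 22.2 and 18.6 FPKM against 6.48, 20.99 and 49.8, and was not called. The count of 7 was 1 without control 1, 4 without control 2, 11 without control 3, and 3, 2 and 1 without HS_AOSFMT 1, 2 and 3. It was 1 with the haemoglobin share as a covariate, 2 with these 2 groups alone and 3 with haemoglobin and acinar genes left out. The heat shock element, searched as GAA, TTC and GAA with 2 bases between neighbours, stood in 5 of 20 promoter windows of the list, those of Chordc1, Hspd1, Hspe1 and Hsph1, against 0.463% of the windows of tested genes and 0.395% of those of genes called higher.

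**Figure D2:**
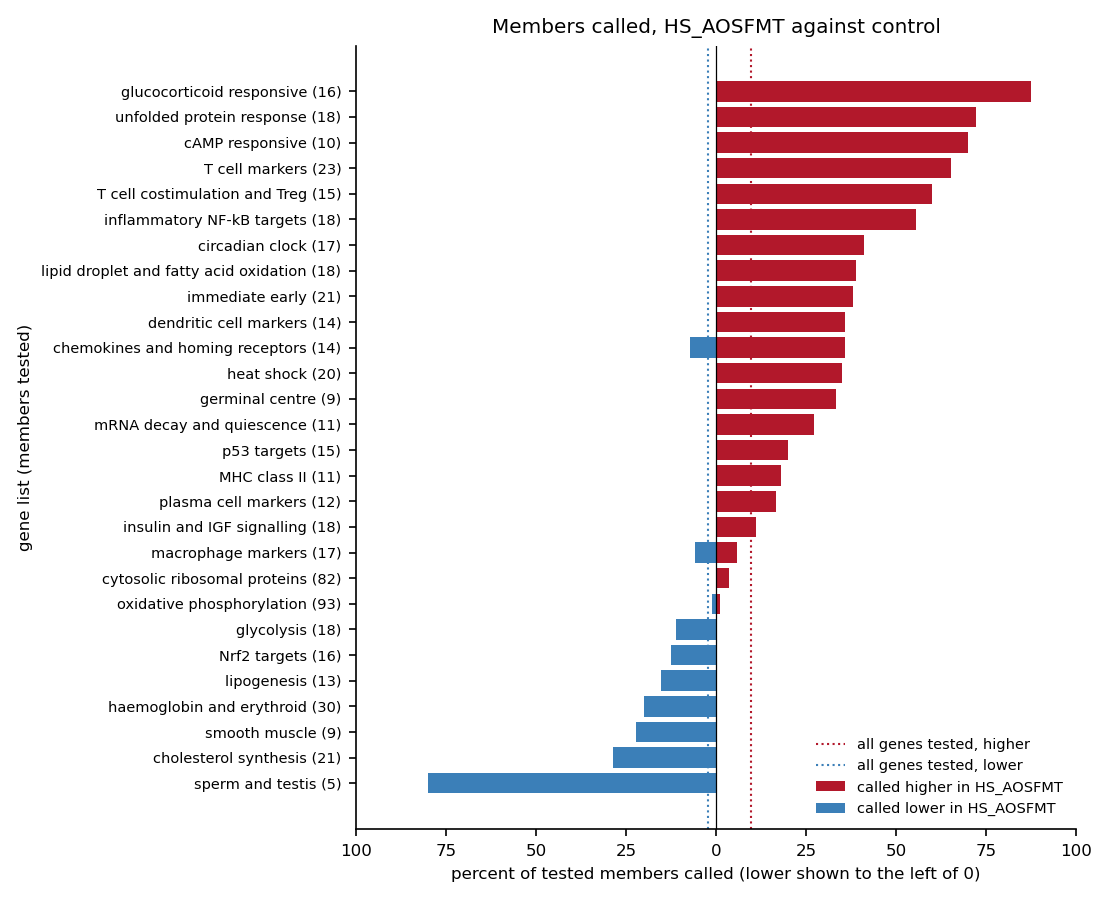
Percent of the tested members of each gene list called higher (red, right) or lower (blue, left) in HS_AOSFMT against control, for lists with at least 2 calls, with the number tested in brackets. Dotted lines mark the 9.68% higher and 2.34% lower over all genes tested, and the glucocorticoid list reaches farthest to the right with 14 of 16.

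Genes of T cells were higher as a group. Of 23 T cell markers, all tested, 15 were called higher and 0 lower (median log2 change 0.73, all 23 above 0). The share called higher over all genes was 9.68%. Their summed share of the library was 0.180%, 0.157% and 0.203% in HS_AOSFMT against 0.0716%, 0.115% and 0.146% in control, with no overlap (exact permutation test, two-sided, p = 0.1, the smallest possible). Il7r, the receptor through which resting T cells receive survival signals, stood at 42.7, 34.5 and 41.0 FPKM against 10.8, 15.02 and 18.4 (log2 change 1.38, SE 0.18, limma adjusted p = 0.0006). Lck, the first kinase of T cell receptor signalling, stood at 113, 104 and 127 FPKM against 41.1, 70.6 and 66.1 (log2 change 0.97, SE 0.18, limma adjusted p = 0.0047). Cd3d, a subunit of that receptor, stood at 50.04, 47.6 and 53.3 FPKM against 22.6, 38.0 and 31.7 (log2 change 0.72, limma adjusted p = 0.013). None of these overlapped. The count of 15 was 5 without control 1, 8 without HS_AOSFMT 1 and 4 without HS_AOSFMT 3. It was 1 with the haemoglobin share as a covariate and 2 with these 2 groups alone.

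The genes of T cell costimulation and of regulatory T cells rose too, with 9 of 15 tested members called higher and 0 lower (median log2 change 0.81). For all genes the share called higher was 9.68%. Ctla4, a receptor that holds T cell activation in check, stood at 9.47, 12.6 and 11.3 FPKM in HS_AOSFMT against 3.15, 5.29 and 3.2 in control (log2 change 1.33, SE 0.23, limma adjusted p = 0.0034). Icos, a costimulatory receptor, stood at 11.9, 13.3 and 12.4 FPKM against 5.69, 7.28 and 6.17 (log2 change 0.88, limma adjusted p = 0.0092). Foxp3, the lineage factor of regulatory T cells, stood at 6.84, 5.92 and 7.66 FPKM against 1.89, 4.07 and 2.88 (log2 change 1.02, limma adjusted p = 0.014). No HS_AOSFMT library overlapped with control in these genes. Havcr2 (log2 change 0.81), Tnfrsf18 (0.72) and Tigit (1.31) rose as well. The count of 9 was 3 without control 1, 4 without HS_AOSFMT 1, 3 without HS_AOSFMT 3, 5 with these 2 groups alone and 0 with the haemoglobin share as a covariate.

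Stat4, the transcription factor that carries interleukin 12 signals in T and natural killer cells, rose. Stat4 (chromosome 1, 51987148 to 52107189, mm10) stood at 48.8, 54.0 and 64.8 FPKM in HS_AOSFMT against 15.1, 17.8 and 19.0 in control. The groups lay far apart (log2 change 1.63, SE 0.12, limma adjusted p = 3.7e-06). That they did not overlap was a condition for naming Stat4 among the largest rises. Of the 14 tested genes of the interleukin 12 and Th1 axis it was the 1 gene called, and the median of the list was 0.32. Over all genes 9.68% were called higher, so that count says little about the list. Of the 14 genes 13 lay above 0, 6 had an unadjusted p under 0.05 and 7 did not overlap between the groups. The shares over all genes were 64.6%, 31.9% and 31.6%. Il18r1 (10.9, 9.44 and 12.1 FPKM against 6.12, 8.24 and 9.27), a receptor chain for interleukin 18, and Tyk2, a kinase upstream of Stat4 (log2 change 0.30), did not pass the test. Without control 3, 6 genes of the list were called. Of 17 natural killer and cytotoxic genes limma called 0 (3 at an unadjusted p under 0.05), with a median of 0.27, and 2 were called without control 3. Gzmk, a granzyme, had the smallest p among them at 5.12, 5.31 and 5.65 FPKM against 0.93, 2.43 and 2.72 (limma adjusted p = 0.082).

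Few B cell markers passed the test, with 1 of 17 called higher, beside 9.68% of all genes. That gene was Cd72, an inhibitory co-receptor of B cells, at 91.1, 81.1 and 95.6 FPKM against 48.6, 53.2 and 59.4 (log2 change 0.72, SE 0.15, limma adjusted p = 0.0077). Its groups did not overlap, whereas the list's median was 0.16 (-0.21 with the haemoglobin share as a covariate), and 6 were called without control 3. Of 9 germinal centre genes 3 were called higher and 0 lower (median 0.55). They were Fas, a death receptor of activated lymphocytes (24.4, 21.6 and 22.2 FPKM against 9.07, 12.4 and 12.6, log2 change 0.95), Bcl6, the lineage factor of germinal centre B cells and follicular helper T cells (log2 change 0.52), and Il21r, the receptor for interleukin 21 (0.55). Fas did not overlap between the groups. The count of 3 was 1 without control 1 and 1 with the haemoglobin share as a covariate. Of 12 plasma cell markers 2 were called, Xbp1 (log2 change 0.51) and Prdm1 (0.60), 4 were called without control 2, and 0 were called without control 1, without any 1 HS_AOSFMT library or with the haemoglobin share as a covariate.

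Among myeloid genes, dendritic cell markers were higher, with 5 of 14 called and 0 lower (median log2 change 0.46). Of all genes 9.68% were called higher. Their summed share was 0.0435%, 0.0395% and 0.0476% in HS_AOSFMT against 0.0205%, 0.0278% and 0.0343% in control, with no overlap (exact permutation test, two-sided, p = 0.1, the smallest possible). Clec10a, a sugar-binding receptor of a subset of dendritic cells and macrophages, stood at 6.65, 7.41 and 7.85 FPKM against 3.45, 3.11 and 3.34 (log2 change 0.95, SE 0.19, limma adjusted p = 0.0074). Siglech, a marker of plasmacytoid dendritic cells, stood at 25, 14.8 and 28.6 FPKM against 7.26, 10.3 and 10.4 (log2 change 1.17, limma adjusted p = 0.036). Neither overlapped. The count of 5 was 1 without control 1, 3 without control 2, 8 without control 3, 2 without HS_AOSFMT 1, 1 without HS_AOSFMT 3, 1 with these 2 groups alone, 3 with no filter on low values and 0 with the haemoglobin share as a covariate.

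Of 18 tested targets of the inflammatory factor NF-kB, 10 were called higher and 0 lower (median log2 change 0.54), against 9.68% of all genes. Cd14, a co-receptor for bacterial lipopolysaccharide, stood at 10.4, 12.5 and 17.4 FPKM in HS_AOSFMT against 7.58, 6.52 and 6.04 in control (log2 change 0.88, SE 0.15, limma adjusted p = 0.0040). Nfkbiz, a nuclear cofactor of NF-kB, stood at 19.1, 19.6 and 21.3 FPKM against 9.95, 10.8 and 14.1 (log2 change 0.75, SE 0.13, limma adjusted p = 0.0041). Nfkbia and Tnfaip3, which encode inhibitors of the pathway, rose by 0.58 and 0.61 on the log2 scale. None of these 4 genes overlapped between the groups.

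The count of 10 was 2 without control 1, 6 without control 2, and 3, 6 and 2 without HS_AOSFMT 1, 2 and 3. It was 2 with the haemoglobin share as a covariate, 0 with these 2 groups alone and 6 with haemoglobin and acinar genes left out. Of 21 interferon response genes limma called 0 (4 at an unadjusted p under 0.05), with a median of -0.12. The shares over all genes were 9.68% called higher, 2.34% called lower and 31.9% at an unadjusted p under 0.05. The interferon-induced Rsad2 stood at 28.7, 39.6 and 24.1 FPKM against 87.9, 60.4 and 44.6 (limma adjusted p = 0.14), and Cxcl10 at 28.3, 34.7 and 31.2 against 12.7, 23.5 and 21.9 (limma adjusted p = 0.13).

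Among 14 chemokines and homing receptors 5 were called higher and 1 lower (median log2 change 0.44), against 9.68% and 2.34% of all genes. Cxcr6, a receptor of resident memory and natural killer T cells, stood at 9.98, 10.1 and 9.90 FPKM against 5.85, 6.0 and 5.50 (log2 change 0.70, SE 0.11, limma adjusted p = 0.0021). Its ligand gene Cxcl16 stood at 21.2, 21.7 and 23.9 FPKM against 10.9, 16.2 and 12.7 (log2 change 0.72, SE 0.15, limma adjusted p = 0.0094). Neither overlapped. Ccl21a, a chemokine that draws T cells and dendritic cells into the white pulp, rose by 0.89, and Cx3cr1, a receptor of monocytes and macrophages, fell by 0.45 on the log2 scale. Near-identical copies of Ccl21a exist in the mouse genome, so its value is uncertain. The 6 calls became 2 without control 1, 2 without HS_AOSFMT 1, 3 without HS_AOSFMT 2 or 3, 1 with these 2 groups alone, 2 with the haemoglobin share as a covariate and 3 with haemoglobin and acinar genes left out.

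Macrophage markers moved in both directions. Of 17 tested genes 1 was called higher and 1 lower, with a median of 0.12, beside 9.68% and 2.34% of all genes. Vcam1, an adhesion molecule of red pulp macrophages and stroma, stood at 136, 118 and 143 FPKM in HS_AOSFMT against 65.1, 79.7 and 100 in control (log2 change 0.71, SE 0.14, limma adjusted p = 0.0072). Slc40a1, the iron exporter ferroportin by which red pulp macrophages return iron to blood, stood at 46.4, 38.8 and 46.6 FPKM against 59.4, 59.6 and 81.2 (log2 change -0.58, SE 0.17, limma adjusted p = 0.039). The groups did not overlap in either, but Slc40a1 was not called when any 1 of the 6 libraries was left out.

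Genes of red cell formation fell in part. Of 30 tested genes of haemoglobin and the erythroid line, 6 were called lower and 0 higher, with a median log2 change of -0.86, against 2.34% of all genes called lower. Fech, which inserts iron into haem, stood at 85.8, 107 and 69.9 FPKM in HS_AOSFMT against 259, 184 and 175 in control (log2 change -1.22, SE 0.32, limma adjusted p = 0.026). Slc4a1, the anion exchanger band 3 of the red cell membrane, stood at 185, 254 and 157 FPKM against 589, 428 and 403 (log2 change -1.26, SE 0.36, limma adjusted p = 0.038). Every HS_AOSFMT library lay below every control in these genes. That was a condition for naming them among the largest falls, so it adds no support.

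Sptb, Trim10 and Alas2 were also called (log2 changes -1.29, -1.38 and -1.12). The count of 6 was 0 without control 1, HS_AOSFMT 1 or HS_AOSFMT 3, 1 without control 2, 13 without control 3 and 0 with the haemoglobin share as a covariate, where the list's median was 0.03. Genes of cell division lay below 0 in all 27 tested members (median -0.55), but 1 was called, the mitotic cyclin Ccnb2 at 36.3, 49.1 and 31.5 FPKM against 100, 76.2 and 54.5 (limma adjusted p = 0.048). Over all genes 64.6% lay above 0 and 2.34% were called lower, so the 1 call says little about the list. Without control 3, 18 of the 27 were called, 3 without HS_AOSFMT 2, and 0 without control 1, control 2, HS_AOSFMT 1 or HS_AOSFMT 3. Ccnb2 was not called with the haemoglobin share as a covariate. Its groups did not overlap.

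Further large falls lay outside these lists. Phospho1, a phosphatase of bone mineral formation that is also abundant in red cells, stood at 0.65, 1.07 and 0.81 FPKM against 9.09, 5.23 and 3.84 (log2 change -1.87, limma adjusted p = 0.047). Hist1h2ap, a histone gene of the DNA synthesis phase, stood at 349, 336 and 353 FPKM against 1048, 840 and 586 (log2 change -1.21, limma adjusted p = 0.011). Near-identical histone genes exist, so its value is uncertain. Neither was called without control 1 or with the haemoglobin share as a covariate. Phospho1 was called in 6 of the 15 alternatives and Hist1h2ap in 13. Lack of overlap was a condition for naming both.

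**Figure D3:**
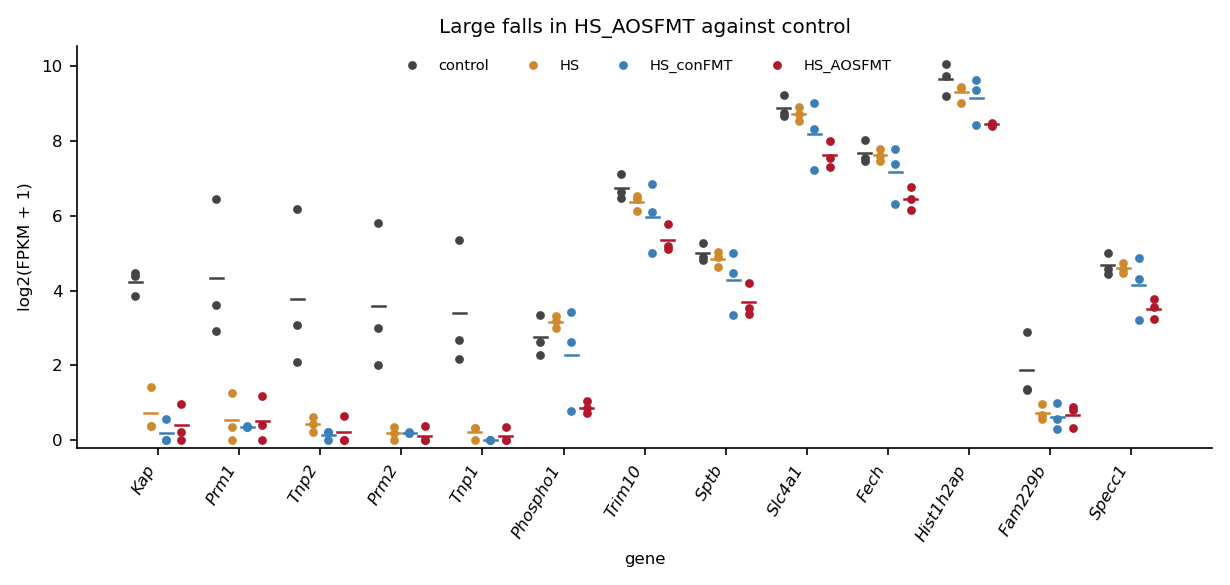
Log2(FPKM + 1) of named genes with the largest fall in HS_AOSFMT against control, in the same 4 groups, with points for libraries and short lines for group means. Kap and the 4 sperm genes are near 0 in all groups but control, whereas the HS and HS_conFMT points of the red cell genes lie between or beside the other groups.

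Neutrophil granule genes had a negative median that rested on 1 control. Over 19 tested genes the median log2 change was -0.94 with control 1 and -0.04 without it, and limma called 0 of them (1 at an unadjusted p under 0.05). Ltf, which encodes the granule protein lactoferrin, stood at 33.1, 37.8 and 33.6 FPKM in HS_AOSFMT against 397, 116 and 20.1 in control. Mmp9, a granule protease, stood at 4.27, 5.06 and 4.6 FPKM against 41.3, 13.4 and 5.38 (limma adjusted p = 0.053). The HS_AOSFMT libraries lay between the controls in Ltf and below them in Mmp9. Without control 3, 15 of the 19 were called. Platelet and megakaryocyte genes lay below 0 in all 16 members (median -0.43), with 0 called by limma, 3 at an unadjusted p under 0.05, and 8 called without control 3. Beside both lists, 2.34% of all genes were called lower, 31.9% had an unadjusted p under 0.05 and 64.6% lay above 0.

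**Figure D4:**
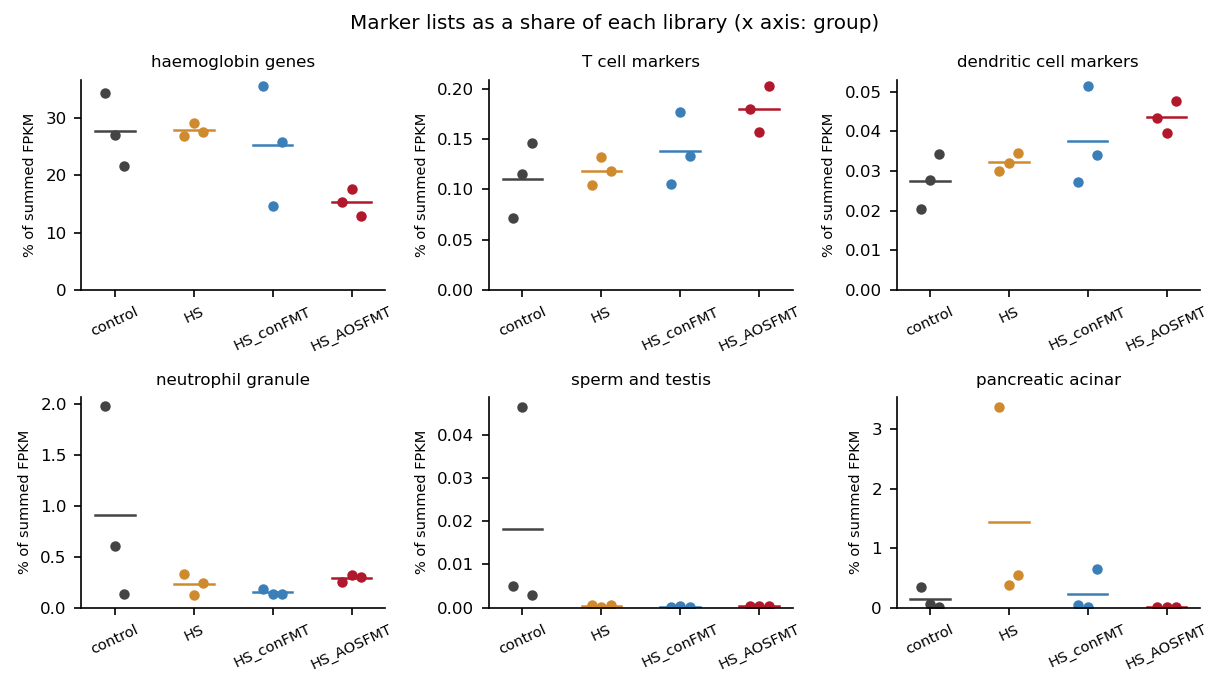
Share of each library's summed FPKM taken by 6 marker lists in control, HS, HS_conFMT and HS_AOSFMT, with a point for each library and a line for the group mean. The HS_AOSFMT points lie below the controls for haemoglobin (12.9% to 17.6% against 21.5% to 34.3%) and above them for T cell and dendritic cell markers, and control 1 holds the highest neutrophil share.

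The fall with the lowest adjusted p was in Kap, the kidney androgen-regulated protein gene, whose transcript is best known from kidney. Kap (chromosome 6, 133849851 to 133853762, mm10) stood at 0.98, 0.16 and 0.00 FPKM in HS_AOSFMT against 13.3, 20.1 and 20.97 in control (log2 change -3.83, SE 0.28, limma adjusted p = 3.7e-06). It was also at or below 1.67 FPKM in every HS, HS_conFMT, HS_AOS and AOS library, so the controls are the high group. The sperm genes Prm1, Prm2, Tnp1 and Tnp2, which package the DNA of sperm, were also called lower. Prm2, Tnp1 and Tnp2 reached a value of 1 FPKM in the controls alone, and Kap in the controls and 1 HS library. Prm1 reached it in the controls, 1 HS library and 1 HS_AOSFMT library. All of these genes thus passed the filter on low values through the group where they are high. That fixes their direction, so their tests and their lack of overlap support nothing. Prm1 stood at 0.32, 1.27 and 0.00 FPKM in HS_AOSFMT against 11.3, 85.6 and 6.56 in control (log2 change -3.80). Control 2 was the highest. The 15 listed genes of sperm and testis summed to 2.30 to 3.03 FPKM in HS_AOSFMT and to 20.2 to 349 in control. The 4 calls became 1 with the haemoglobin share as a covariate or under a minimum of 5 FPKM, and 0 with these 2 groups alone. The part of this RNA in other results was not tested.

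RNA of pancreatic acinar cells also differed between libraries. Its 32 listed genes took 0.344%, 0.0623% and 0.00586% of control 1, 2 and 3 and 0.00451% to 0.0138% of HS_AOSFMT, and 2 of them were at 0 in all 6 libraries. Limma called 0 of the 30 tested members (0 at an unadjusted p under 0.05), with a median of -2.48, beside 2.34% of all genes called lower. The 8 listed islet genes summed to at most 0.12 FPKM in any of these libraries, and 6 were at 0 in all 6.

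Among genes of lipid storage and fatty acid oxidation, 7 of 18 tested were called higher and 0 lower, with a median log2 change of 0.16. Over all genes 9.68% were called higher, with a median of 0.09. Plin2, the coat protein of lipid droplets, stood at 44.3, 48.1 and 44.0 FPKM in HS_AOSFMT against 23.2, 25.5 and 22.2 in control (log2 change 0.92, SE 0.09, limma adjusted p = 2.7e-05). Pdk4, a kinase that turns cells from glucose to fatty acid oxidation, stood at 15.3, 11.2 and 14.0 FPKM against 1.71, 2.88 and 2.65 (log2 change 2.09, SE 0.22, limma adjusted p = 0.00011). Angptl4, an inhibitor of lipoprotein lipase and a known target of PPAR receptors, stood at 20.6, 16.6 and 21.7 FPKM against 8.13, 9.47 and 6.63 (log2 change 1.19, SE 0.19, limma adjusted p = 0.0026). The groups lay apart in all 3, which for Pdk4 was a condition for naming it among the largest rises.

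Acot1, an acyl-CoA thioesterase, stood at 7.38, 4.56 and 5.16 FPKM against 1.39, 1.77 and 1.81 (log2 change 1.32, SE 0.28, limma adjusted p = 0.010). Cpt1a, the gate for fatty acids into mitochondria, rose by 0.46. Neither gene overlapped. The enzymes of the beta-oxidation cycle itself were not called, with log2 changes of -0.02 for Acadm, -0.01 for Hadha and -0.01 for Acadvl, named here after their values were seen. The count of 7 was 3 without control 1, 3 without HS_AOSFMT 1, 4 without HS_AOSFMT 3, 4 under either scaling, 4 with these 2 groups alone and 3 with the haemoglobin share as a covariate.

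Genes of cholesterol synthesis fell in part, with 6 of 21 tested called lower and 0 higher (median -0.15), against 2.34% of all genes. Fdft1, Mvk, Fdps and Sqle, enzymes of the pathway, fell by 0.46, 0.53, 0.47 and 0.30 on the log2 scale. All 4 were without overlap. The count of 6 was 2 without control 1, 3 without HS_AOSFMT 3, 1 with these 2 groups alone and 2 with the haemoglobin share as a covariate.

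Of 13 lipogenesis genes 2 were called lower, against 2.34% of all genes. They were Acaca, the acetyl-CoA carboxylase (3.74, 3.80 and 3.78 FPKM against 5.18, 5.52 and 6.39, log2 change -0.48), and Fads2, a fatty acid desaturase (log2 change -0.61), and 1 was called without HS_AOSFMT 3 or with the haemoglobin share as a covariate. Of 18 glycolysis genes Hk1 and Pfkm were called lower (log2 changes -0.55 and -0.66). Both are also expressed in red cells, and neither was called with the haemoglobin share as a covariate or without control 1, control 2, HS_AOSFMT 1 or HS_AOSFMT 3. Among 18 genes of insulin signalling Socs3, a feedback inhibitor of cytokine receptors, rose from 11.1, 9.48 and 8.34 FPKM to 15.4, 23.4 and 24.3 (log2 change 1.03, SE 0.18, limma adjusted p = 0.0038). Its groups did not overlap, and Socs2 was also called (log2 change 0.51). With 2 of 18 called, against 9.68% of all genes called higher, the count says little about the list. Of the 18 genes, 1 was called without control 1 or any 1 HS_AOSFMT library and 4 without control 3.

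In the list of mRNA decay and quiescence 3 of 11 genes were called higher, against 9.68% of all genes. Zfp36l2, an RNA-binding protein that promotes decay of AU-rich transcripts, stood at 141, 146 and 137 FPKM against 47.6, 57.2 and 88.1 (log2 change 1.17, SE 0.16, limma adjusted p = 0.0010). Btg1, which restrains proliferation of lymphocytes, stood at 210, 193 and 211 FPKM against 88.2, 122 and 152 (log2 change 0.79, limma adjusted p = 0.010). Neither overlapped. Pdcd4, an inhibitor of translation, rose by 0.74. The 3 calls stood without each of the 6 libraries in turn, except that 5 genes were called without control 3, that 1 was called with the haemoglobin share as a covariate, and that 0 were called with these 2 groups alone.

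The remaining lists held at most 3 calls each. Over all genes 9.68% were called higher and 2.34% lower. The Nrf2, p53, smooth muscle and MHC class II lists lay above these shares, each on 2 or 3 genes. Of 16 targets of the oxidative stress factor Nrf2, 2 were called lower (G6pdx and Gstm1, median -0.37), and 5 were called after upper quartile scaling. Of 15 p53 targets 3 were called higher (Sesn1, Ccng1 and Cdkn1a), and 0 under either scaling. Of 82 cytosolic ribosomal protein genes 3 were called higher, and 0 under either scaling. Of the 82, 79 lay above 0 and 55 did not overlap between the groups, against 64.6% and 31.6% of all genes. Their median was 0.19, and under the scalings it was 0.11 and 0.08. Of 93 genes of oxidative phosphorylation 1 rose, the assembly factor Ndufaf4 (log2 change 0.44), and 1 fell, the ATP synthase subunit gene Atp5k (-0.52). Of 17 matrix genes 0 were called by limma, 0 of them at an unadjusted p under 0.05, and of 9 smooth muscle genes 2 were called lower, Acta2 (log2 change -0.59) and Mylk (-0.34). MHC class II genes had 2 of 11 called higher, H2-Ab1 (log2 change 0.61) and Ctss (0.46), with a median of 0.33 (-0.10 with the haemoglobin share as a covariate). Without control 3 these 7 lists held 5, 5, 6, 10, 1, 4 and 7 calls in the order given, and without control 1 they held 2, 1, 0, 2, 0, 1 and 0.

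The transplant from control donors served to ask which of these differences went with the AOS donors. HS_AOSFMT against HS_conFMT gave 624 genes higher and 135 lower, 5.85% of the genes tested (4.81% higher and 1.04% lower, with 22.8% at an unadjusted p under 0.05). The split was 389 higher to 243 lower after upper quartile scaling and 255 to 233 with haemoglobin and acinar genes left out, and with the haemoglobin share as a covariate it turned to 337 higher and 357 lower. This comparison shares the HS_AOSFMT libraries with the one against control. Stat4 stood at 15.5, 20.6 and 16.8 FPKM in HS_conFMT 1, 2 and 3, all below the 48.8 to 64.8 of HS_AOSFMT (log2 change 1.61, 95% interval 1.34 to 1.87, limma adjusted p = 1.4e-05). Crem stood at 6.96, 6.94 and 8.93 FPKM in HS_conFMT (log2 change 1.66, limma adjusted p = 5.5e-05). Pde3b stood at 6.21, 6.88 and 6.99 FPKM (log2 change 1.32, limma adjusted p = 2.9e-05). In these 3 genes the HS_conFMT libraries lay below every HS_AOSFMT library. They are among the 10 genes picked for the smallest p in this same comparison. Their p and their separation from HS_conFMT are thus a description and no support.

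Rundc3b, a little studied gene of the RUN domain family, stood at 4.37, 4.41 and 4.47 FPKM in HS_AOSFMT, 1.11, 1.49 and 1.2 in HS_conFMT and 0.78, 0.94 and 1.10 in control. Against control its log2 change was 1.49 (SE 0.11, limma adjusted p = 3.7e-06) and against HS_conFMT it was 1.26 (limma adjusted p = 2.9e-05). Cables1, a regulator of cyclin-dependent kinases, stood at 3.94, 4.34 and 4.39 FPKM against 1.71, 1.52 and 1.66 in HS_conFMT and 1.48, 1.5 and 1.26 in control. Arrdc3, an arrestin family protein, stood at 29.3, 29.1 and 28.4 FPKM against 16.4, 15.7 and 20.0 in control (log2 change 0.71, limma adjusted p = 0.0027). In HS_conFMT Arrdc3 stood at 16.3, 11.7 and 14.0 FPKM. HS_AOSFMT stood apart from both groups in Rundc3b, Cables1 and Arrdc3. Small p against HS_conFMT was the rule that named these genes, so their separation from it adds no support.

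By list, the cAMP genes held 7 of 10 calls higher against HS_conFMT (median 0.60) and the unfolded protein response 11 of 18 (median 0.54). The glucocorticoid list held 4 of 16 (median 0.34), heat shock 2 of 20 (0.61), T cell markers 1 of 23 (0.36), T cell costimulation 0 of 15 by limma (0.20, with 4 at an unadjusted p under 0.05), and dendritic cell markers 0 of 14 (0.17, with 3), where the median over all genes was 0.06 and 4.81% were called higher. Zbtb16, whose direction the filter on low values fixed, is among the 4 glucocorticoid calls, and its call supports nothing. The clock list held 2 called higher and 3 lower (median -0.03). The haemoglobin share of HS_conFMT 1, 2 and 3 ran from 14.7% to 35.5%, which overlaps with HS_AOSFMT.

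Several genes that rose against control were not called against HS_conFMT. Nr1d1 stood at 9.38, 10.6 and 8.51 FPKM in HS_conFMT, and the difference of HS_AOSFMT from it was -0.27 (95% interval -0.66 to 0.12). For Per1 the difference was 0.19 (-0.13 to 0.52), for Ddit4 -0.15 (-0.58 to 0.27), for Sik1 0.04 (-0.38 to 0.45) and for Errfi1 0.54 (-0.25 to 1.34). These intervals do not show that the groups are alike. Errfi1 ran from 12.2 to 48.7 FPKM in HS_conFMT, a range that holds all HS_AOSFMT values.

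**Figure D5:**
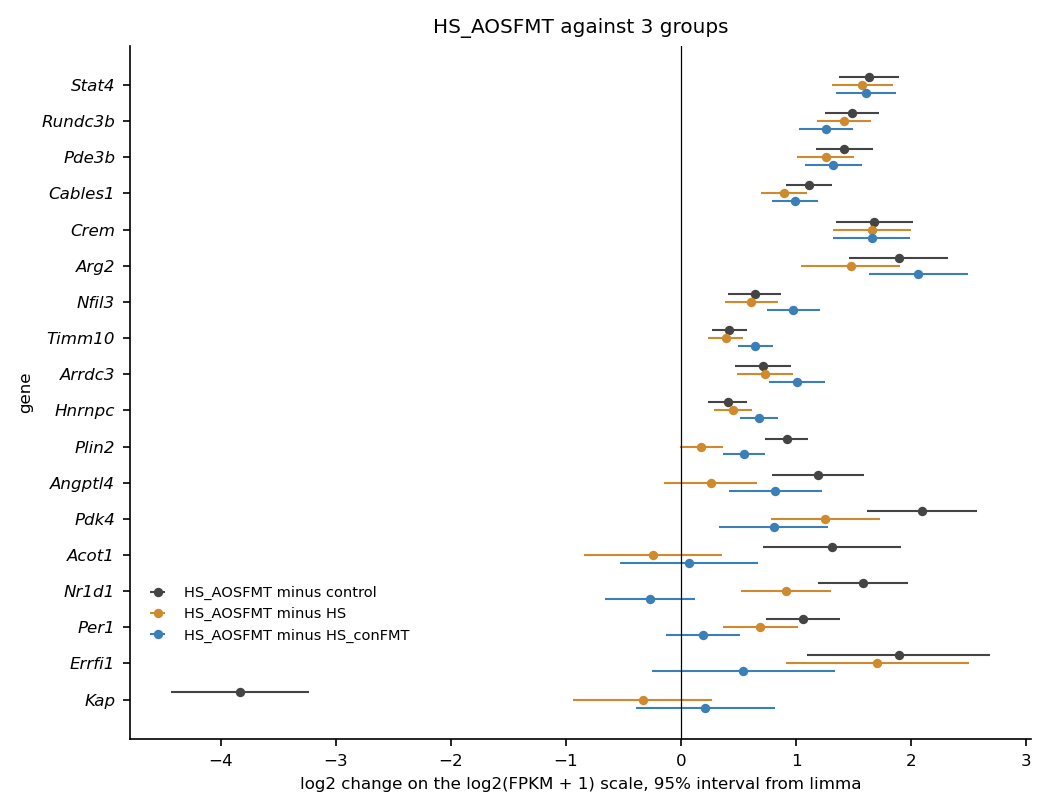
Log2 change of HS_AOSFMT against control, HS and HS_conFMT for 18 named genes, with 95% intervals from limma. Stat4, Rundc3b, Pde3b, Cables1, Crem and Arg2 lie to the right of 0 in all 3 comparisons, while the intervals of Nr1d1, Per1 and Errfi1 against HS_conFMT and of Plin2, Angptl4 and Acot1 against HS reach 0. The genes from Stat4 to Arg2 were picked for small p against HS_conFMT.

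Against HS, the diet and STZ without transplant, 1048 genes were higher and 149 lower in HS_AOSFMT (9.23% of genes tested, 8.08% higher and 1.15% lower). The split was 540 to 213 after upper quartile scaling and 207 to 154 with haemoglobin and acinar genes left out, and 96 to 54 with the haemoglobin share as a covariate. Plin2 stood at 41.9, 39.1 and 39.3 FPKM in HS, and the difference of HS_AOSFMT from it was 0.18 (95% interval -0.01 to 0.36, limma adjusted p = 0.20). For Acot1 the difference was -0.24 (-0.84 to 0.36), and for Angptl4 it was 0.26 (limma adjusted p = 0.39). Pdk4 was higher than in HS by 1.25 (0.78 to 1.73, limma adjusted p = 0.0067), where it stood at 4.84, 7.74 and 3.31 FPKM. Fkbp5 and Il7r were also higher than in HS, by 1.29 and 1.22. HS_AOSFMT lay above HS in every library for Pdk4. Of 30 acinar genes 21 were called lower against HS, whose libraries held 0.377% to 3.37% acinar RNA, and the glucocorticoid list held 10 of 16 calls higher (median 0.77). Zbtb16, whose direction the filter fixed, is among these 10 glucocorticoid calls, and its call supports nothing. The cAMP list held 8 of 10 (0.73), the clock 7 of 17 (0.31), T cell markers 7 of 23 (0.46), heat shock 1 of 20 (0.40) and the unfolded protein response 1 of 18 (0.24), where the median over all genes was 0.10. HS against control, which shares the control libraries, gave 2 called genes (0.0154%), Plin2 higher and Kap lower, and HS_conFMT against control gave 5 (0.0386%). These counts come from limma, with 830 (6.40%) and 1521 (11.7%) genes at an unadjusted p under 0.05. Kap and Tnp1 are among the 5 genes, both lower. Both passed the filter on low values through the controls, so their calls, and that of Kap in HS, support nothing.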

How the data were processed

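RNA sequencing libraries of mouse spleen, 3 in each of 6 groups, were deposited as one table of 19326 gene lines. Per the submitters' processing notes, Bowtie 0.12.2 and mm10 were used, and per the labels' protocols RNA was extracted with Trizol and libraries followed standard Illumina steps. The counter, annotation and filters were not given in the sources used here. Values deposited by the authors were taken as FPKM, because no header names the unit and the values have 2 decimals and sums that differ between libraries. Reads were not recovered from them, so no count model was used.

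From the deposited values, log2(FPKM + 1) was tested with limma 3.58.1 (R 4.3.3), with group as the sole factor over all 18 libraries, 12 residual degrees of freedom, an intensity trend and robust variance, two-sided, with Benjamini-Hochberg adjustment over 12969 genes with a value of at least 1 in at least 3 libraries. Standard errors and 95% intervals come from that fit. Shares of marker lists were compared by exact permutation tests (Python 3.11.15). Gene symbols were matched to GENCODE M21 for coordinates (97.1% matched), and promoters are RefSeq windows. The table held 26 symbols turned into dates, and 3 symbols stood on 2 lines, which were kept apart.

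Named genes are, for HS_AOSFMT against control, up to 15 called genes in each direction with the largest change and no overlap, leaving out predicted genes and receptor segments, and up to 6 members of smallest p from each list with at least 3 calls, or up to 3 from others. Also named are Plin2, Kap, and the 10 genes called against control with the smallest p against HS_conFMT that were also called there. Some genes that this rule names are not reported here. Genes, lists and comparisons were chosen with earlier results of these data known. Alternatives were the pseudocount, 2 filters on low values, 2 scalings, the 2 groups alone, no trend or robust variance, a replicate block, each library left out and, chosen after seeing the data, the haemoglobin share as a covariate.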

Additional observations from a re-analysis of the deposited data

Results flagged for a closer look

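For 10 genes the responses of the 2 transplant groups differed by the limma test of the difference itself. HS_AOSFMT exceeded HS_conFMT on the log2 scale by 1.61 in Stat4, 1.26 in Rundc3b, 1.32 in Pde3b, 0.99 in Cables1, 1.66 in Crem and 2.06 in Arg2. It exceeded it by 0.98 in Nfil3, a transcription factor that represses clock genes, by 0.64 in Timm10, a chaperone of mitochondrial import, by 1.01 in Arrdc3 and by 0.68 in Hnrnpc, an RNA-binding protein. The 10 genes were picked for the smallest p in this difference, so the values are a description. Timm10 stood at 34.3, 36.2 and 30.6 FPKM in HS_AOSFMT and at 26.0, 24.1 and 24.5 in control, and Hnrnpc at 211, 211 and 210 against 144, 159 and 174. Neither overlapped with control.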

How the results depend on the processing

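No named gene called against control changed the sign of its log2 change under any alternative in which it was tested, but medians of lists did. With the haemoglobin share as a covariate the medians of red cell genes (0.03), B cell (-0.21), plasma cell (-0.07), macrophage (-0.01) and MHC class II genes (-0.10) turned, and the median over all genes was -0.002 with haemoglobin and acinar genes left out. The medians of glycolysis, mRNA decay, matrix and oxidative phosphorylation genes, all near 0, turned under both scalings. The 1558 genes called against control became 174 with these 2 groups alone, 228 with the haemoglobin share as a covariate and 448 to 3381 when each library was left out in turn. The 759 called against HS_conFMT became 176 with 2 groups alone, 488 with haemoglobin and acinar genes left out and 199 to 1201 over the left-out libraries. The 1197 called against HS became 753 after upper quartile scaling, 361 with haemoglobin and acinar genes left out, 150 with the covariate and 203 to 751 over the left-out libraries.

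Of the 138 named genes called against control, 138 were called with a pseudocount of 0.1, 111 with no filter, 120 after upper quartile scaling, 46 with 2 groups alone and 38 with the covariate. Leaving out a library left 71 to 132 of them called.

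The labels number the libraries 1 to 3 in each group. Deviations of HS_AOSFMT and control libraries with the same number correlated at -0.366, -0.136 and -0.002, so the numbers do not pair them. The replicate block gave 1547 higher and 394 lower calls against control and moved no count of all genes by over 1.5 times. Absolute depth is unknown, which limits low genes.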
